A study of Mus musculus with 8 samples.

Results

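Cytosolic ribosomal protein genes were described across the epidermis of CD1 mouse back skin in 4 groups of Ovol1 genotype and imiquimod (IMQ) treatment. They are the rows of both deposited tables whose symbol is Rpl or Rps with a number (with or without the suffix a, x or l), together with Rplp0, Rplp1, Rplp2 and Rpsa, and without names that end in -ps. This rule took 81 of 16902 genes, 49 of the large subunit and 32 of the small subunit. It uses symbols alone, but it was chosen with earlier results of these data known. Ovol1 is a DNA-binding zinc-finger protein that represses transcription in skin, and IMQ, an agonist of Toll-like receptors, is used on mouse skin to model psoriasis. The untreated groups were Ovol1 +/- controls and Ovol1 -/- mice. The IMQ-treated groups were Ovol1 +/+ controls and Ovol1 -/- mice, so the control genotype differed between the comparisons. Each of the 4 groups held 2 libraries, replicate 1 from a female and replicate 2 from a male, and p-values therefore measure the spread between these particular libraries. The question of the series was what labelled loss of Ovol1 does to the epidermis at rest and under IMQ.

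A ribosome has a large and a small subunit, and each is built from ribosomal RNA and one copy of most ribosomal proteins. Most of the proteins are thus needed in equal numbers, and ribosomal protein mRNAs are among the most abundant in growing cells. Most of these mRNAs begin with a C followed by a run of C and U, the 5′ terminal oligopyrimidine (TOP) tract, through which the kinase mTOR and the RNA-binding protein Larp1 set how much they are translated. In the epidermis basal keratinocytes divide and make ribosomes, and the upper layers lose them as they cornify. The mammalian genome also carries many processed pseudogenes of these genes, copies of the spliced mRNA that lie elsewhere in the genome and can be nearly identical to it.

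To show a feature that many, but not all, of these genes share near the start of their mRNAs, windows around annotated start sites were read. Each window held 40 bases of the mouse genome (20 before and 20 after, RefSeq, GRCm38.p6) on the strand of the gene. Capitals mark the longest run of C and T. The first 5 windows are given as examples with such a run across the annotated start or, for Rpl13a, just after it, and the last 2, of Rps2 and Rpl26, belong to genes whose values are described in detail further on.
Rpl28, chr7:4792945-4792984, plus strand: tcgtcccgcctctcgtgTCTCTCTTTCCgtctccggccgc
Rpl35a, chr16:33056462-33056501, plus strand: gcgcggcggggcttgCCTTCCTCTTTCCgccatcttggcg
Rps6, chr4:86857348-86857387, minus strand: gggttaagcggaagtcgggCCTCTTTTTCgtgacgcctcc
Rps27, chr3:90213629-90213668, minus strand: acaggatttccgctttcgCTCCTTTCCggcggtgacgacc
Rpl13a, chr7:45128726-45128765, minus strand: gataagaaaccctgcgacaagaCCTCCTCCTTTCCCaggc
Rps2, chr17:24720043-24720082, plus strand: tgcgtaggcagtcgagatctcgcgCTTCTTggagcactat
Rpl26, chr11:68901546-68901585, plus strand: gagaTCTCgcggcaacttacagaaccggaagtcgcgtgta
Of the 81 genes, 60 matched RefSeq, with 72 start windows. A run of at least 8 C or T on the gene strand was found in 43.1% of these 72 windows, against 16.0% of all 32851 windows. On the opposite strand the same run was found in 6.94% of the ribosomal protein windows and 17.7% of all windows. The letters CTTTCC were present on the gene strand in 15.3% against 1.95%, and CTCTTT in 12.5% against 1.54%, and neither was found on the opposite strand of the ribosomal protein windows. These words can overlap by the shared letters CTTT and both count towards a run of C and T. The letters CCGGAAG, the core bound by factors of the ETS family, were found on either strand in 36.1% of the 300-base promoters (250 before to 50 after the start) against 8.86% of all promoters. A match describes these letters only, and the annotated start need not be the start used in these cells.

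The libraries held 28.6 to 43.1 M reads, and 80 of the 81 genes passed the filter on low values and were tested beside the rest of the 14614 genes that passed. The depth behind most of them was high, with a mean of at least 10000 reads per library in 65 genes, under 2000 reads in 8 and under 100 reads in 4. Ovol1 itself was read in every library, at 16629 and 14582 normalised counts in the untreated controls and 27433 and 26601 in the untreated -/- mice, and at 7635 and 9556 against 13457 and 13076 under IMQ. Its log2 fold change was 0.79 (SE 0.15, limma adjusted p = 0.346) and 0.64 (SE 0.15, limma adjusted p = 0.0880), with higher values in the -/- libraries. No table has a value below the level of the gene, so its level is no check of genotype, and the term labelled knockout is used for -/- libraries. The summed keratinocyte markers (Krt5, Krt14, Krt1, Krt10, Trp63, Col17a1, Dsp and Perp) stood at 26095 to 38999 CPM (counts scaled to a common library size) in every library, so the labelled tissue carried its defining genes.

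Reads in ribosomal protein genes made up about 5 to 7% of every library. In untreated epidermis they took 5.24% of the female and 6.03% of the male control library, and 4.76% and 5.27% of the labelled knockout libraries. Under IMQ the control libraries had 6.75% and 6.48%, and the labelled knockout libraries 6.11% and 6.95%. All 4 IMQ libraries lay above all 4 untreated libraries, and within each treatment the genotypes overlapped, since the untreated control female was below the labelled knockout male. The group means were 5.64% ± 0.557 in the untreated controls and 5.02% ± 0.357 in the untreated labelled knockouts (SD, n = 2). Under IMQ they were 6.62% ± 0.190 and 6.53% ± 0.591 in turn. With 2 against 2 libraries an exact permutation test cannot give a two-sided p below 0.333, so none is given. Counting error was small beside these differences: the exact 95% binomial interval of the lowest share was 4.76% to 4.77%. In bulk RNA, fewer cells of a type and less RNA per cell cannot be told apart.

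**Figure D1:**
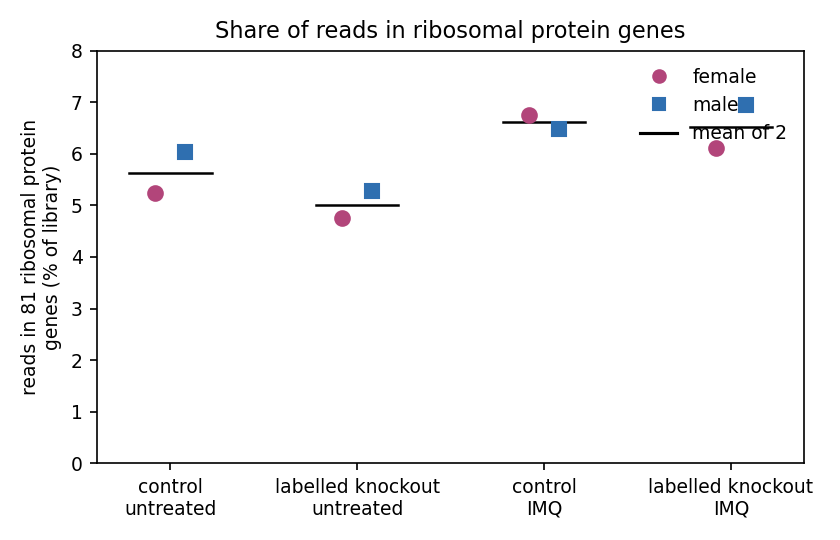
Share of each library's reads in the 81 cytosolic ribosomal protein genes (percent, vertical axis) in the 4 groups, with 1 circle per female, 1 square per male and a bar at the mean of 2. The 4 untreated libraries sit between 4.76% and 6.03% and the 4 IMQ libraries between 6.11% and 6.95%, and the genotypes overlap within each treatment.

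The level of a ribosomal protein mRNA per length of transcript spanned several orders of magnitude in the tables, although most ribosomal proteins are used in equal numbers. On the scale of CPM per kb, averaged over the 8 libraries, the median gene stood at 724. Rplp1, an acidic protein of the stalk that recruits elongation factors, was highest at 4337 and ranged from 3175 to 5604 between libraries. Rps15 followed at 2248, Rps27 at 2152, Rps12 at 2097 and Rplp0, the base of the stalk, at 2060, and the ranges of these 4 overlapped, so their order is not fixed. At the low end were 4 genes that are not general parts of the ribosome. Rpl3l, the striated-muscle counterpart of Rpl3, had 0, 1, 0 and 0 reads in the untreated libraries and 18, 2, 1 and 5 under IMQ and was the gene left out by the filter. Rpl39l, the testis-enriched counterpart of Rpl39, stood at 0.388 CPM per kb and had between 1 and 27 reads. Rpl32l (1.56) and Rps4l (5.92) are annotated as pseudogenes, the only 2 among the 81.

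Low levels were also listed for general ribosomal proteins. Rpl24, a large-subunit protein at the interface of the subunits, stood at 2.61 CPM per kb, with only 42 to 85 reads per library. Rps10, a small-subunit protein at the mRNA entry side, stood at 16.2, Rpl13a at 25.5, Rpl29 at 46.0 and Rpl35 at 91.9. These 5 were each far under the median of 724. The transcripts of 3 of them lie inside a second annotated gene on the same strand that shares exons with them: Gm28037 with Rpl24, Gm45713 with Rpl13a and RPS10-NUDT3 with Rps10. In all, 73 of the 81 genes shared at least one 100-base window of their principal transcript with another GENCODE gene, 25 shared at least 50% of their windows, and the median share was 31.1%. The 468 pairs of a ribosomal protein gene with another gene included 449 pseudogenes. How the submitters' counting treated reads that fit more than 1 gene is not given in the sources used here, and its part in these levels was not tested.

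**Figure D2:**
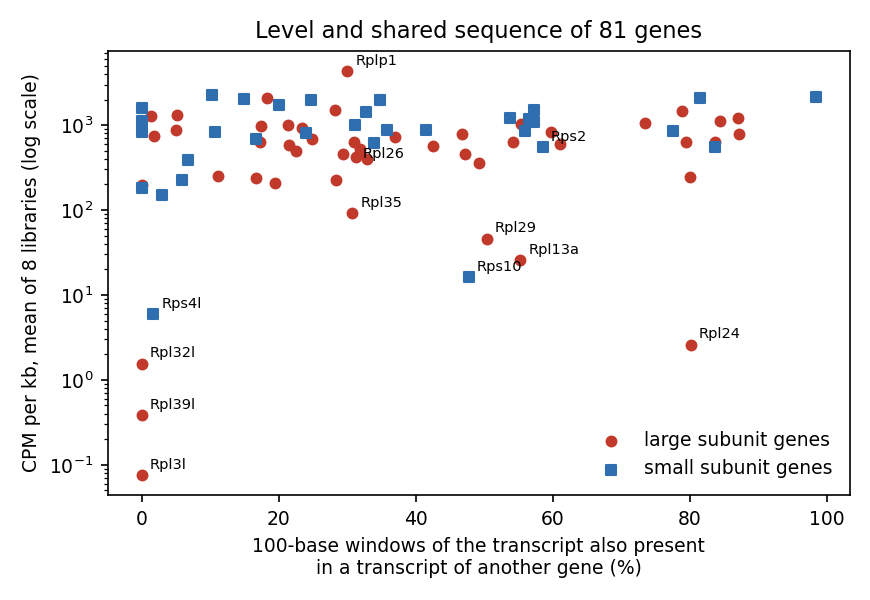
Level of each of the 81 genes (CPM per kb of transcript, mean of 8 libraries, logarithmic axis) against the percent of its 100-base windows that also occur in a transcript of another gene, with circles for the large and squares for the small subunit. Rplp1 is highest at 4337, and Rpl3l, Rpl39l, Rpl32l, Rpl24 and Rps4l lie lowest, at 0.0757 to 5.92.

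In untreated epidermis the ribosomal protein mRNAs stood slightly lower in the labelled knockouts, nearly all by a similar small amount. The median log2 fold change of the 80 tested genes (labelled knockout minus control) was -0.16, against -0.002 over all 14614 genes. Values were below 0 for 77 of the 80, against 7381 of all genes. The interquartile range of the 80 was 0.099 on the log2 scale, against 0.277 for all genes. Most of the 80 had many reads, and no set of genes of like depth was compared, here or under IMQ. Both labelled knockouts were below both controls for 44 of the 80, where the share over all genes was 16.4%, and both were above for 0 of the 80, where it was 17.4%. No ribosomal protein gene passed an adjusted p of 0.05 in limma, where 0% of all genes did, and 4 of 80 had an unadjusted p under 0.05, where 4.46% of all genes did. The 80 values come from the same 4 libraries and are not replicates of the genotype. Between the females alone the median was -0.13, and between the males -0.19. It was -0.08 without the male control and -0.11 without the female labelled knockout. The large-subunit genes had a median of -0.15 (48 genes) and the small-subunit genes one of -0.18 (32 genes), a difference that was not tested. Markers of other cell types also differed between these libraries. Dermal fibroblast markers had a median log2 fold change of -0.49 (8 of 8 below 0), with summed levels of 164 and 493 CPM in control and 85.7 and 522 CPM in labelled knockout libraries. Sebocyte markers had 0.78 (6 of 6 above 0), with 1242 and 2027 against 2732 and 2791 CPM, without overlap. Nuclear RNAs, read as a sign of RNA quality (Malat1, Neat1 and Kcnq1ot1 among 4 in the tables), summed to 1882 CPM in the control female and 1157 to 1334 in the other 3 libraries. Their part in the ribosomal protein values was not tested.

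Values at the ribosome's named sites were of this size, and none of the genes in this paragraph passed the limma test. Of the stalk, Rplp0 was at 102885 and 102977 normalised counts in control libraries against 89545 and 97851 in labelled knockout libraries (log2 fold change -0.14, SE 0.15). Rplp1 (-0.17, SE 0.19) and Rplp2 (-0.12, SE 0.14) were alike. Rpl5 (-0.12, SE 0.14) and Rpl11 (-0.15, SE 0.15), whose proteins can bind Mdm2 and thereby release p53 when ribosome assembly fails, had values about as large as their SE. Rps6, the substrate of S6 kinase, was level at 14744 and 15543 against 14953 and 14954 (-0.02, SE 0.13). Rps27a, made as a fusion with ubiquitin, had -0.18 (SE 0.15). Rpsa, a small-subunit protein also known as the laminin receptor, was at 54366 and 74293 against 48356 and 50811 (-0.36, SE 0.17). The groups did not overlap for Rpsa, and the control male was the highest.

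The genes with the smallest p-values were Rps2, Rpl10a, Rpl37a, Rps4l and Rps28. Rpl10a, a large-subunit protein of the stalk at the tRNA exit, was at 20728 and 21942 normalised counts in control and 16279 and 17142 in labelled knockout libraries (log2 fold change -0.35, SE 0.13, limma unadjusted p = 0.0276, adjusted p = 1.00). Rpl37a was at 19326 and 21287 against 15778 and 17169 (-0.30, SE 0.12). Rps28 was at 13031 and 14359 against 10568 and 11619 (-0.30, SE 0.14). In each of these 3 the groups did not overlap. Rps4l, an annotated pseudogene on chromosome 6, was at 225 and 397 against 212 and 155 (-0.72, SE 0.30), and the control male was the high library. Rpl3, a core protein of the large subunit near the catalytic centre, had -0.33 (SE 0.18). The only values above 0 were those of Rpl30 (0.05), Rps10 (0.03) and Rpl10 (0.03), each well under its SE.

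Rps2 lay outside the common range. The gene encodes a small-subunit protein of the mRNA channel and lies at chr17:24718116-24721929 on the plus strand (GRCm38). It was at 22596 and 27870 normalised counts in the untreated controls and at 10232 and 10260 in the untreated labelled knockouts. The groups were far apart and did not overlap (log2 fold change -1.29, SE 0.33, limma unadjusted p = 0.00511, adjusted p = 0.548). DESeq2 on recovered reads called it, as the only ribosomal protein gene (log2 fold change -1.32, adjusted p = 0.0137), and edgeR did not (adjusted p = 0.581). Of all genes DESeq2 called 0.609% in this comparison. Under IMQ Rps2 was at 28138 in the female and 15808 in the male control, and at 28886 in the female and 16220 in the male labelled knockout. There the sexes stood apart and the genotypes were level (0.04, SE 0.33). As a percent of all ribosomal protein reads, Rps2 took 1.16 and 1.28 in the untreated controls, 0.589 and 0.541 in the untreated labelled knockouts, 1.37 and 0.747 in the IMQ controls and 1.52 and 0.722 in the IMQ labelled knockouts. So 4 libraries lay between 0.541 and 0.747 and the other 4 between 1.16 and 1.52, a split that follows neither genotype, treatment nor sex alone. Rps2 shared 58.5% of its windows with other genes, among them 36 pseudogenes. Its only such partner in the tables, Gm10653, had 1 to 5 reads per library.

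Rpl26 was the second gene outside the common range, and it has a near-identical copy with its own values. The gene, for a protein at the exit tunnel of the large subunit, lies at chr11:68901583-68906989 on the plus strand. Gm15772, annotated as a processed pseudogene at chr5:3236431-3236868 on the plus strand, is listed separately in both tables. Of 438 aligned bases of the Rpl26 coding sequence, 436 are identical in Gm15772. They differ by C177T and T288C, counted from 1 at the first base of the Rpl26 coding sequence, with the Rpl26 base first. The 31 bases around each of these positions are shown because the windows tell the copies apart, with the differing base in capitals (GENCODE vM21 transcripts, GRCm38, plus strand of each gene).
Rpl26, bases 162 to 192: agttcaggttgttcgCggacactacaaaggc
Gm15772, bases 162 to 192: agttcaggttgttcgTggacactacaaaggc
Rpl26, bases 273 to 303: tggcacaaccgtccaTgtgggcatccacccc
Gm15772, bases 273 to 303: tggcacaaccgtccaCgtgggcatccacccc

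Rpl26 was at 16211 and 19966 normalised counts in the untreated controls, 4871 and 17999 in the untreated labelled knockouts, 17932 and 6062 in the IMQ controls and 15825 and 6927 in the IMQ labelled knockouts. Gm15772 went the other way in the same libraries, with 10177 and 12003, then 17855 and 10456, then 11276 and 23121, and last 10062 and 24812. In 3 libraries, the female untreated labelled knockout and both IMQ males, Rpl26 held only 20.8% to 21.8% of the sum of the 2 rows. In the other 5 libraries it held 61.1% to 63.3%. The 3 libraries with the low Rpl26 part also had a low Rps2 share of ribosomal protein reads (0.589%, 0.747% and 0.722% in turn). The male untreated labelled knockout was low in the Rps2 share (0.541%) but not in the Rpl26 part (63.3%). Whether the splits of Rps2 and Rpl26 are linked was not tested. The sum itself varied less than either row, between 22727 and 31969 normalised counts in the 8 libraries. Untreated and IMQ libraries were scaled separately. In untreated epidermis the log2 fold change was -0.94 (SE 0.71, limma adjusted p = 1.00) for Rpl26 alone, 0.31 (SE 0.49) for Gm15772 and -0.19 (SE 0.18, limma adjusted p = 1.00) for the sum. Without the female labelled knockout the value for Rpl26 alone was 0.001. Under IMQ the sum had -0.03 (SE 0.18). The rows were summed after their values had been seen, and what sets the split between them was not tested.

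**Figure D3:**
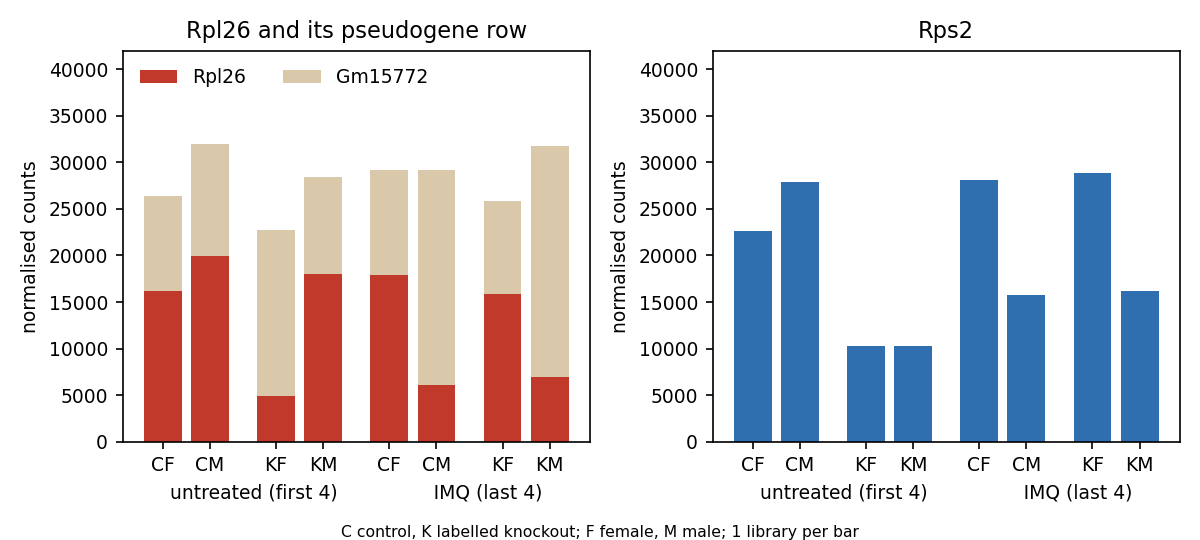
Normalised counts (vertical axes) by library, with 1 bar for each of the 8 libraries: on the left Rpl26 with the row of its pseudogene Gm15772 stacked on it, on the right Rps2. The left stacks reach 22727 to 31969, and the part of Rpl26 is smaller in 3 libraries. Rps2 is low in both untreated labelled knockouts and both IMQ males.

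Within the ribosomal protein reads the other genes kept nearly constant proportions. For each of the 73 protein-coding genes with a mean of at least 2000 reads, the highest share of ribosomal protein reads over the 8 libraries was divided by the lowest, a ranking chosen after the values had been seen. The median ratio was 1.18, and 4 genes were over 1.5: Rpl26 (3.39), Rps2 (2.80), Rps24 (1.59) and Rpl30 (1.57). Rps24, mutated in Diamond-Blackfan anaemia, took 2.51% and 2.03% in the untreated controls, 1.93% and 2.37% in the untreated labelled knockouts, 2.40% and 1.67% in the IMQ controls and 2.44% and 2.66% in the IMQ labelled knockouts. The genotypes overlapped in untreated epidermis, and under IMQ both labelled knockouts were above both controls by this share. Rpl30 took 0.363% to 0.394% in 3 libraries, the untreated control female and both untreated labelled knockouts, and 0.251% to 0.290% in the other 5.

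Under IMQ the ribosomal protein mRNAs had values near 0 between the labelled genotypes. The median log2 fold change was 0.003 against -0.01 over all genes, with 43 of 80 values above 0 and 37 below. The interquartile range was 0.092 on the log2 scale, against 0.596 for all genes. Both labelled knockouts were above both controls for 4 genes (Rpl13a, Rpl24, Rpl7a and Rps10), where the share over all genes was 26.6%. They were below for 4 others, among them Rpl37a, Rps4l and Rps4x, where it was 26.4%. Limma called 0 of 80, against 0.438% of all genes, and 1 of 80 had an unadjusted p under 0.05, against 22% of all genes. With sex as a replicate block limma called 358 of all genes in place of 64, and again 0 of the 80. The sexes pointed in opposite directions, with a median of -0.08 between the females and 0.08 between the males. Without the labelled knockout male the median was -0.11 with 13 of 80 genes above 0, and without the labelled knockout female it was 0.14 with 72 above 0. Scaled by quantiles within the table, 32 of 80 values were above 0. Cell type markers differed too. Their median log2 fold changes were -1.20 for dermal fibroblasts (8 of 8 below 0) and -1.31 for macrophages (5 of 6). Endothelial and skeletal muscle markers had -1.62 and -1.52 (5 of 5 below 0 each), and keratinocyte markers -0.28 (6 of 8). Sebocyte markers had 0.25 (6 of 6 above 0) and T cell markers 0.02 (3 of 6). The other marker medians lay between -0.72 and -0.27. The markers' part in these values was not tested.

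**Figure D4:**
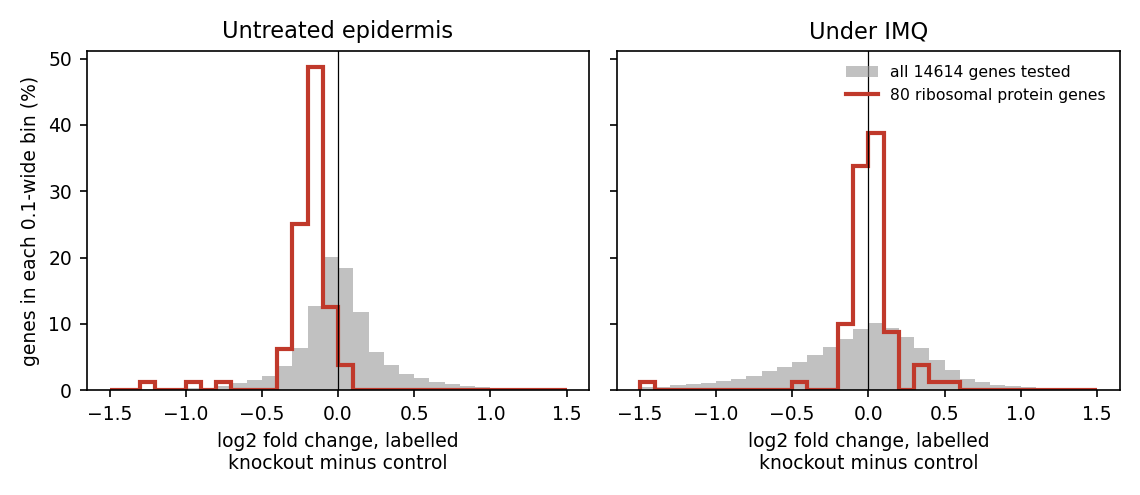
Percent of genes (vertical axis) in each 0.1-wide bin of log2 fold change (labelled knockout minus control, horizontal axis), for the 80 tested ribosomal protein genes (red line) and all 14614 genes (grey), untreated on the left and under IMQ on the right. The ribosomal protein genes form a narrow peak at a median of -0.16 untreated and 0.003 under IMQ, inside a wider spread of all genes.

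Rpl13a carried the largest value above 0 under IMQ. Its protein belongs to the large subunit and is also known for silencing inflammatory mRNAs after release from the ribosome in interferon-treated myeloid cells. It was at 743 and 929 normalised counts in IMQ control and 1278 and 1180 in IMQ labelled knockout libraries, without overlap (log2 fold change 0.56, SE 0.16, limma unadjusted p = 0.00765, adjusted p = 0.119). DESeq2 called it, again as the only ribosomal protein gene (0.59, adjusted p = 0.0291), and edgeR did not (adjusted p = 0.119). Of all genes DESeq2 called 8.5% in this comparison. In untreated epidermis Rpl13a was at 820 and 696 against 751 and 713 (-0.05, SE 0.16). The gene lies at chr7:45125558-45128761 on the minus strand and shares 55.2% of its windows with other genes, chiefly the overlapping Gm45713, which was not used here.

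The other genes at the ends of the range included some with few reads and some with many. Rps10 was at 410 and 535 in IMQ control and 651 and 598 in IMQ labelled knockout libraries (log2 fold change 0.41, SE 0.22). Rpl24 was at 53.2 and 51.4 against 72.6 and 61.8 (0.35, SE 0.32). Rps24 had 0.34 (SE 0.22), with 49090 and 35401 against 46500 and 59732, so that the groups overlapped. Rpl32l had 0.32 (SE 0.49), on 10 to 29 reads in any library. On the lower side Rpl39l had -1.44 (SE 1.17), with 8.26 and 30.8 against 0.994 and 19.0. This is a spread between sexes as wide as that between genotypes. Rps4l had -0.49 (SE 0.30), Rps19 -0.16 (SE 0.19) and Rpl3 -0.15 (SE 0.18). The limma test passed none of them.

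The ribosome's named sites had values near 0 under IMQ. Rplp0 had a log2 fold change of -0.01 (SE 0.15), Rplp1 -0.12 (SE 0.19) and Rplp2 0.04 (SE 0.14). Rpl5 and Rpl11 had 0.01 (SE 0.14) and 0.10 (SE 0.15), and Rps6 was at 16753 and 18035 against 16238 and 18807 (0.01, SE 0.13). Rpsa had -0.03 (SE 0.17) and Rps27a 0.12 (SE 0.15). The X-linked genes Rps4x, Rpl10, Rpl36a and Rpl39 had -0.12, -0.04, 0.03 and -0.05, after -0.18, 0.03, -0.16 and -0.10 in untreated epidermis. Rps27l, a paralog of Rps27 known as a p53 target, was at 2813 and 3253 against 2752 and 3773 (0.09, SE 0.20). Rps27 itself had -0.02 (SE 0.19). Rpl32, the parent of the pseudogene Rpl32l, had 0.02 (SE 0.16).

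The difference of the 2 labelled genotype effects (IMQ minus untreated) was tested in the same fit. Limma called 0 of 80 genes, against 0% of all genes, and 2 of 80 had an unadjusted p under 0.05 (Rps2 and Rpl13a), against 10.1% of all genes. EdgeR and DESeq2 also called 0 of the 80 for this difference, against 0% and 0.677% of all genes in turn. The difference was 1.33 (SE 0.47, limma adjusted p = 0.476) for Rps2 and 0.61 (SE 0.22, limma adjusted p = 0.476) for Rpl13a. The median over the 80 genes was 0.17, against -0.03 over all genes, with 78 values above 0 and only those of Rpl39l (-1.43) and Rpl10 (-0.07) below. As the controls were Ovol1 +/- in one treatment and Ovol1 +/+ in the other, this difference and the control genotype cannot be told apart.

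Between treatments the ribosomal protein mRNAs stood higher under IMQ in both the controls and the labelled knockouts. The tables were scaled separately, so this was set out on CPM with trimmed-mean (TMM) factors over all 8 libraries and was not tested. The controls were Ovol1 +/- untreated and Ovol1 +/+ under IMQ, so among them treatment and control genotype cannot be told apart. In the controls the median log2 difference (IMQ minus untreated) was 0.31, against 0.02 over all genes, with 77 of 80 above 0. Both IMQ libraries were above both untreated ones for 69 of the 80, where the share over all genes was 35.3%, and below for 1, Rps4l, where it was 32.3%. In the labelled knockouts the median was 0.47, against -0.01 over all genes, with 78 of 80 above 0. There both IMQ libraries were above for 74 of the 80, where the share over all genes was 39.9%, and below again for 1, Rps4l, where it was 40.1%. The size depended on the scaling: with the deposited values as they stand the medians were 0.02 (controls) and 0.17 (labelled knockouts), where all genes had -0.26 and -0.32.

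The genes at the ends of the range between treatments differed in part between the controls and the labelled knockouts. In the controls the highest were Rpl39l (0.74), Rplp2 (0.56), Rps25 (0.56), Rps13 (0.56) and Rpl27 (0.55). The lowest in the controls were Rps4l (-0.55), Rpl26 (-0.50), Rpl32l (-0.32), Rpl24 (0.01) and Rps2 (0.03). In the labelled knockouts the highest were Rps2 (1.38), Rpl13a (1.03), Rps10 (0.88), Rpl35 (0.86) and Rpl27 (0.84), and the lowest Rps4l (-0.30), Rpl32l (-0.10), Rpl10 (0.12), Rpl30 (0.12) and Rplp0 (0.26). The pseudogenes Rps4l and Rpl32l were thus the 2 tested genes below 0 in both the controls and the labelled knockouts. Rpl26 was below 0 in the controls, where the IMQ male was its low library. Rplp0, often used as a reference gene, differed by 0.11 (controls) and 0.26 (labelled knockouts) on this scale.

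Genes that work with the ribosome were followed through lists of related functions, with the values of each list on the same scales. The nucleolar genes of ribosome biogenesis differed more than the ribosomal proteins by their medians. The median difference between IMQ and untreated was 1.04 (controls) and 1.60 (labelled knockouts), with 21 of 21 genes above 0 in each. The mitochondrial ribosomal protein genes had 0.59 and 0.91 (77 genes) and small nucleolar RNA host genes 0.68 and 1.24 (8 genes). Initiation factors had 0.44 and 0.72 (29 genes), and elongation and nascent chain factors 0.30 and 0.50 (10 genes). Of these 5 lists the elongation and nascent chain factors lay closest to the ribosomal proteins. The share of reads in mitochondrial ribosomal protein genes was 0.135% and 0.128% in the untreated controls and labelled knockouts and 0.194% and 0.234% under IMQ.

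**Figure D5:**
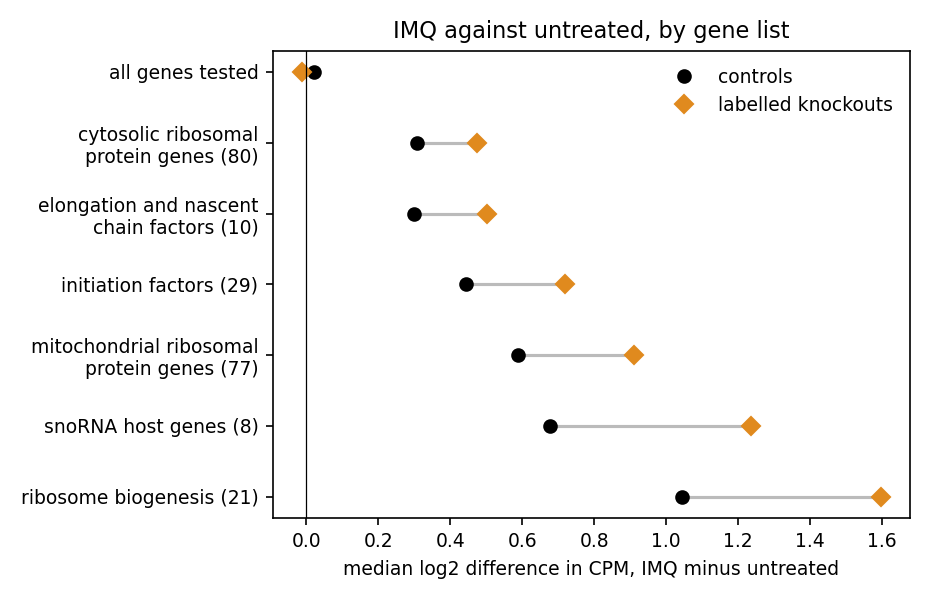
Median log2 difference in CPM between IMQ and untreated epidermis (horizontal axis) for all genes tested, the 80 ribosomal protein genes and 5 related lists (vertical axis, number of genes in brackets), with circles for controls and diamonds for labelled knockouts. The ribosomal proteins lie at 0.31 and 0.47 and the ribosome biogenesis genes at 1.04 and 1.60. The controls were Ovol1 +/- untreated and Ovol1 +/+ under IMQ.

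Between genotypes these lists had medians a little below 0 in untreated epidermis, as the ribosomal proteins did, and medians of 0.09 to 0.49 under IMQ, where that of the ribosomal proteins was 0.003. In untreated epidermis the medians were -0.11 for ribosome biogenesis, -0.08 for mitochondrial ribosomal proteins and -0.11 for small nucleolar RNA hosts. They were -0.07 for initiation factors and -0.07 for elongation and nascent chain factors. Of the 145 genes of these lists limma and edgeR called 0 in either comparison, and limma gave 1 an unadjusted p under 0.05 untreated and 43 under IMQ. DESeq2 called 0 of them untreated and 11 under IMQ (7.59%), where it called 8.5% of all genes. Under IMQ all 21 biogenesis genes had values above 0 (labelled knockout minus control), with a median of 0.46 and an unadjusted p under 0.05 in 9, where 22% of all genes had one. Wdr12, a pre-ribosome assembly factor, was at 1480 and 1831 normalised counts in IMQ control and 3077 and 2282 in IMQ labelled knockout libraries (log2 fold change 0.69, SE 0.18, limma adjusted p = 0.113). Dkc1, the pseudouridine synthase of the nucleolus, had 0.69 (SE 0.21), Rrp9 0.62 (SE 0.22) and Nop56 0.59 (SE 0.24). Mitochondrial ribosomal protein genes had a median of 0.26, with 68 of 77 above 0 and an unadjusted p under 0.05 in 24, all higher. Mrps25 led them at 491 and 625 against 1156 and 876 (0.86, SE 0.19, limma adjusted p = 0.0848), and Mrpl50 had 0.66 (SE 0.15). Initiation factors had a median of 0.23, with Pabpc1, the cytoplasmic poly(A)-binding protein whose mRNA also carries a TOP tract, at 22788 and 27416 against 42230 and 39967 (0.72, SE 0.20, limma adjusted p = 0.115). Small nucleolar RNA hosts had 0.49, led by Snhg5 (0.75, SE 0.24). Elongation and nascent chain factors had 0.09, where the ribosomal proteins had 0.003. Whether a list differed from the ribosomal proteins was not tested, nor was the part of the cell type markers in the list values.

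The genes that control ribosomal protein translation and those that answer to its failure had medians near 0. The mTOR and Larp1 list (14 genes) had a median of 0.05 untreated and -0.003 under IMQ. Its only unadjusted p under 0.05 were those of Rps6kb1, the S6 kinase (0.34, SE 0.13), Rictor (-0.35, SE 0.15) and Eif4ebp2 (-0.27, SE 0.12), all under IMQ, which is 3 of 14 genes where 22% of all genes had one. Integrated stress response targets (14 genes) had medians of -0.01 and 0.02, with Chac1 at 504 and 383 against 135 and 115 untreated (-1.81, SE 0.38, limma adjusted p = 0.402). Asns, asparagine synthetase, had 0.88 (SE 0.22, limma adjusted p = 0.102) under IMQ. Targets of p53 (10 genes) had medians of 0.02 and -0.09. Among them Sesn1, a sestrin that restrains mTOR, was lower in the IMQ labelled knockouts than in the IMQ controls. It was at 3064 and 3033 in control against 1727 and 1591 in labelled knockout libraries (-0.88, SE 0.12, limma adjusted p = 0.0439). It was the only gene of any related list that limma called, and the call was lost with any of the 8 libraries left out (adjusted p from 0.0588 to 0.155). Among ribosomal proteins with symbols outside the rule, Rpl36al, a retrogene of Rpl36a, was at 34.0 and 33.1 against 58.7 and 74.2 under IMQ (0.96, SE 0.28, limma adjusted p = 0.128).

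Male libraries stood above female ones in 3 of the 4 groups under each scaling used, and in the IMQ controls the direction rested on the scaling. On the deposited scale the median log2 difference of the 80 genes (male minus female) was 0.17 in untreated controls, 0.12 in untreated labelled knockouts, 0.10 in IMQ controls and 0.24 in IMQ labelled knockouts, with 72, 66, 66 and 73 of 80 above 0. Over all genes these medians were 0.004, 0.006, 0.03 and -0.01. With CPM by library totals alone, compared after the values had been seen, the IMQ controls had -0.01 with 36 of 80 above 0, where all genes had -0.07, and the other groups 0.14 to 0.21. Dermal fibroblast markers (8 of 8 in the tables, none at 0 throughout) also differed by sex. Their summed level was 83.3 to 262 CPM in the 4 female libraries and 493 to 2599 in the 4 male ones. The highest sum was in the IMQ control male, whose group had the smallest median difference of the 80 genes. Macrophage markers (6 of 6) were at 25.6 to 38.7 CPM untreated and 38.9 to 100.1 under IMQ, neutrophil markers (5 of 6) at 19.7 to 28.5 and 46.1 to 124.8, and Langerhans and dendritic cell markers (6 of 6) at 1435 to 2220 and 1985 to 4228. T cell markers (6 of 7) were at 101.1 to 177 CPM over all libraries. Endothelial, skeletal muscle and melanocyte markers (5 of 5 each) reached 19.4, 99.6 and 81.9 CPM, each highest in the IMQ control female. Sebocyte markers (6 of 6) were at 1118 to 2791 CPM and those of hair matrix and shaft (4 of 6) at 2.74 to 7.36. The part of these cell types in the ribosomal protein values was not tested.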

How the data were processed

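Epidermis of CD1 mouse back skin was separated with dispase, and oligo-dT selected RNA was sequenced as stranded paired-end libraries, per the labels' protocols. Each deposited value is a signal: from its steps, the authors' reads per gene over 1 factor for the library, with untreated and IMQ libraries scaled in separate tables. Per the submitters' processing notes the tools were Trimmomatic 0.35, STAR 2.5.2a, DESeq2 1.24.0 and R 3.6.1, with the build mm10. For the read counter, annotation and filter, the sources used here give nothing. Within 0.001 read, 100% of the values were whole multiples of 1 step per library. Dividing by the step gave recovered reads.

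Genotype was tested with limma 3.58.1 (R 4.3.3) on log2(deposited value + 1), a scale that understates changes of low genes. Genes needed a mean of at least 10 in either table (14614 genes, 80 of the 81 ribosomal protein genes). The fit held 4 group means over 8 libraries with trend and robust moderation, and the Benjamini-Hochberg adjustment ran over all genes tested, with a threshold of 0.05. IMQ was set against untreated without a test, as log2(CPM + 0.5) of recovered reads with TMM factors. Alternatives were other pseudocounts, filters and scalings, sex as a replicate block, edgeR 4.0.16 (quasi-likelihood) and DESeq2 1.42.0 on recovered reads, and each library left out. Replicate numbers follow the sex in the labels. Deviations from group means correlated between same-sex libraries at 0.145 to 0.463 across genes (0.0742 to 0.393 on autosomes). Over the 80 ribosomal protein genes the correlation ran from -0.274 (untreated labelled knockouts with IMQ controls) to 0.706 (IMQ controls with IMQ labelled knockouts).

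Positions, principal transcripts (by APPRIS, ties by length), levels per kb and 100-base windows came from GENCODE vM21 (GRCm38). Genes were named when among the 5 smallest p-values or the 5 highest or lowest values of a comparison or level, for a role (stalk, Rpsa, Rps6, Rps27a, Rpl5 and Rpl11, X-linked genes, paralogs and their parents), or as the up to 4 largest changes of a related list. Genes, lists and rules were chosen with earlier results of these data known. Some values that the naming rule takes in are not reported here. Intervals cover counting error only. The scripts were tested on simulated data. Python 3.11.15, pandas 2.3.3 and matplotlib 3.10.9 were used.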

Additional observations from a re-analysis of the deposited data

How the results depend on the processing

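Depth (28.6 to 43.1 M reads) limits the low genes (Rpl3l, Rpl39l, Rpl32l and Rpl24), and 2 libraries per group limit all tests. In the alternatives that leave out a library, the lone library of its group was assumed to vary like the others. Limma and edgeR called 0 ribosomal protein genes in each comparison under the alternatives run. This held with sex as a replicate block too, which also kept the call of Sesn1. DESeq2 called 1 ribosomal protein gene untreated (Rps2) and 1 under IMQ (Rpl13a). The cause of this was not tested. Of all genes (untreated, IMQ, their difference) limma called 0, 64 and 0, or 8, 358 and 0 with the replicate block, 0, 43 and 0 in edgeR and 89, 1242 and 99 in DESeq2. The untreated median of -0.16 was -0.12 with quantile scaling and ranged from -0.24 to -0.085 with 1 library left out. The IMQ median of 0.003 ranged from -0.11 to 0.14. For IMQ minus untreated the medians were 0.025 (controls) and 0.17 (labelled knockouts) with the deposited values, whose tables are scaled separately, and ranged from 0.22 to 0.38 and from 0.37 to 0.64 with 1 library left out. Leaving out 1 library turned the sign of Rpl26 untreated (-1.88 to 0.00066), Rpl32l under IMQ (-0.26 to 0.90) and Rpl39l under IMQ (-3.11 to 0.22). With library totals alone, an alternative added after seeing the data, the male minus female median in the IMQ controls was -0.0084 in place of 0.097. The call of Sesn1 was also lost with each table alone and with plain moderation. Without the 5 genes with the most reads, the share of reads was 4.28% and 4.91% in untreated controls, 3.88% and 4.30% in untreated labelled knockouts, 5.53% and 5.29% in IMQ controls and 5.02% and 5.74% in IMQ labelled knockouts. For the 15 genes sharing under 10% of their windows, a choice made after seeing the data, the medians were -0.14 untreated, 0.0002 under IMQ, and 0.29 and 0.40 for IMQ minus untreated. Fitting each table alone gives no value for the difference.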
